A study of Homo sapiens with 14 samples.

Results

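The 6 GATA factors and their 2 FOG cofactors were followed through RNA and GATA1 chromatin immunoprecipitation data from pancreatic cancer cell lines. The members were the listed genes GATA1, GATA2, GATA3, GATA4, GATA5, GATA6, ZFPM1 (FOG1) and ZFPM2 (FOG2), each matched by symbol to 1 of 61541 Ensembl genes counted; gene coordinates are those of RefSeq on GRCh38.p14. RNA came from cells labelled BxPC-3, in 3 libraries with a short hairpin against HDAC5 (shHDAC5) and 3 with a control hairpin (shControl, genotype WT), all at day 3. GATA1 immunoprecipitation used PANC-1, a second line of pancreatic cancer, at day 3. There were 2 samples labelled shHDAC5 and 2 control samples, titled NC and labelled shControl here, with 2 inputs for each. For each label, 1 list of binding peaks was used. The labels do not tell separate cultures from repeat libraries, so each p-value rests on library-to-library spread that may be only technical. Hairpin sequences, clones and selection were not among the sources used.

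GATA factors are zinc-finger proteins that bind DNA at the letters GATA. GATA1, GATA2 and GATA3 are best known from blood cells (red cells and platelets, stem cells, and T lymphocytes), and GATA4, GATA5 and GATA6 from heart and gut-derived tissues, GATA6 also from the pancreas. FOG proteins do not need to bind DNA themselves: they dock on a GATA zinc finger and bring the NuRD and CtBP corepressors, whereas EP300 and CREBBP acetylate GATA1. HDAC5 is a class IIa histone deacetylase.

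Each RNA library held between 15179758 and 17854340 counts. HDAC5 transcripts, the target of the hairpin, were higher in the libraries labelled as knockdown, with 162, 161 and 169 CPM (counts scaled to library size, here after TMM scaling) in the shHDAC5 libraries against 95.4, 91.7 and 97.7 CPM in the shControl libraries. Its log2 fold change of 0.79 had a standard error (SE) of 0.0358 and an adjusted p of 3.95e-40 by edgeR's quasi-likelihood test. The target therefore went against the label, and "shHDAC5" and "shControl" below mean the libraries or lists so labelled. Differences were spread over the whole transcriptome: 84.7% of 19181 genes tested passed an adjusted p under 0.05 (edgeR), with 44.8% higher and 39.9% lower in shHDAC5. A change of at least 2-fold among those called was found for 26.4% upwards and 20.1% downwards. The 3 shHDAC5 values did not overlap the 3 shControl values in 84.8% of genes tested, 45.0% with shHDAC5 higher and 39.8% with it lower. Of 6 epithelial markers, 1 rose, 2 fell, 2 were called in neither direction and 1 was too low to test. KRT7 was at 25.3 ± 0.445 CPM in shHDAC5 against 371 ± 9.72 CPM in shControl (SD, n = 3 each), a log2 fold change of -3.87 (adjusted p = 9.28e-102, edgeR). KRT8 was at 1010 and 717 CPM, KRT18 at 327 and 404 CPM, EPCAM at 1.99 and 1.84 CPM and CDH1 at 1.33 and 1.43 CPM in shHDAC5 and shControl, and KRT19 had 5 counts in all shHDAC5 libraries and 1 in all shControl libraries. SMAD4 and CDKN2A, known to be deleted in BxPC-3, had 46.8 and 13.7 CPM in shHDAC5 and 49.6 and 149 CPM in shControl, which goes against the labelled line. In bulk RNA, fewer cells of a type and less RNA per cell cannot be told apart.

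The promoters of GATA1, GATA2 and GATA3 below carried a GATA1 peak of one list and are shown with the bases that the peak covers in capitals. They are RefSeq promoters of GRCh38.p14, from 250 bases before to 50 bases after a start site. None of the peaks shown had an authors' q of at most 0.05, and which condition each list holds is unsettled. The GATA1 promoter is chrX:48786340-48786639 on the plus strand, with the last 24 bases covered in the shHDAC5 list. The GATA2 promoter is chr3:128493152-128493451 on the minus strand, with the last 9 bases covered in the shControl list. The first of 2 GATA3 promoters at internal start sites is chr10:8049604-8049903 on the plus strand, with its first 135 bases covered in the shControl list. The second is chr10:8050986-8051285 on the plus strand, with its first 101 bases covered in the shControl list by a peak of fold 2.39.
GATA1: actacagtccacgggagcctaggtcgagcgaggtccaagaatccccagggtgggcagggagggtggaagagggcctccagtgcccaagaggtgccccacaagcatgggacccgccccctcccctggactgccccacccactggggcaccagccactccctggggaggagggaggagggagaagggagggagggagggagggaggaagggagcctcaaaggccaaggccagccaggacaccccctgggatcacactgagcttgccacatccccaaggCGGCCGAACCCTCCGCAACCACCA
GATA2: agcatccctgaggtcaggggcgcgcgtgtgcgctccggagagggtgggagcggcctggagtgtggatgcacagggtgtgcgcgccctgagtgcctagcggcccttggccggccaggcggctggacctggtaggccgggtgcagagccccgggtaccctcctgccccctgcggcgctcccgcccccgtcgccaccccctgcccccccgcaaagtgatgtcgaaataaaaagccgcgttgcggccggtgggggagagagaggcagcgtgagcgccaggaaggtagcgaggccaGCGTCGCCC
GATA3, first: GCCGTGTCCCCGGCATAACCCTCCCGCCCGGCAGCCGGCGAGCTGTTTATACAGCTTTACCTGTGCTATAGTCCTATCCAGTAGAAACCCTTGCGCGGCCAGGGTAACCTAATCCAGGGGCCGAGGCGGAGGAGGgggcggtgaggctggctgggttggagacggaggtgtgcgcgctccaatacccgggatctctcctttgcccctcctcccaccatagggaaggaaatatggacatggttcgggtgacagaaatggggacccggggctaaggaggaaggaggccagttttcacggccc
GATA3, second: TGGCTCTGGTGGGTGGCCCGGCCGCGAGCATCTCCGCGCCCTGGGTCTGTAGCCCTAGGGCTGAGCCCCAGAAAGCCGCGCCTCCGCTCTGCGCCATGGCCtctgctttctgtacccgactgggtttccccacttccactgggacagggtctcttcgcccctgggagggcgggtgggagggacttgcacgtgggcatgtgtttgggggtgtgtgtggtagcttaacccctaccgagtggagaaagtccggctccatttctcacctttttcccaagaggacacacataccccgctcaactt
Of the 4, the first GATA3 promoter alone holds the letters GATA on either strand, as TATC at position -176 from the start site and inside the bases the peak covers. Of the other 4 GATA3 start sites in the RefSeq table, 2 have the letters GATA in their promoter, and no peak of either list reaches those promoters. The letters GATA on either strand occur in 49.7% of 35116 RefSeq promoters of this length. The longer form that begins with A or T, goes on with GATA and ends with A or G was searched on both strands as well and was in none of the 4, against 8769 of all 35116 promoters.

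Of the 8 genes, 7 passed the filter on low counts: 5 rose, 1 fell and 1 did not pass the test in shHDAC5. GATA1, GATA3, GATA5, ZFPM1 and ZFPM2 were higher, GATA6 was lower, GATA2 was called in neither direction, and GATA4 was too low to test. The median log2 fold change of the 7 was 1.22, against 0.09 over all genes tested. That median is the value of GATA5, whose groups overlapped. It exceeded that of 57.8% of the 1000 genes nearest to GATA5 in mean level. Since 84.7% of all genes were called, the count of 6 in 7 is near the background. The groups did not overlap for 4 genes that were higher and 1 that was lower, among the 7 tested, where 84.8% of all genes had groups that did not overlap.

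**Figure D1:**
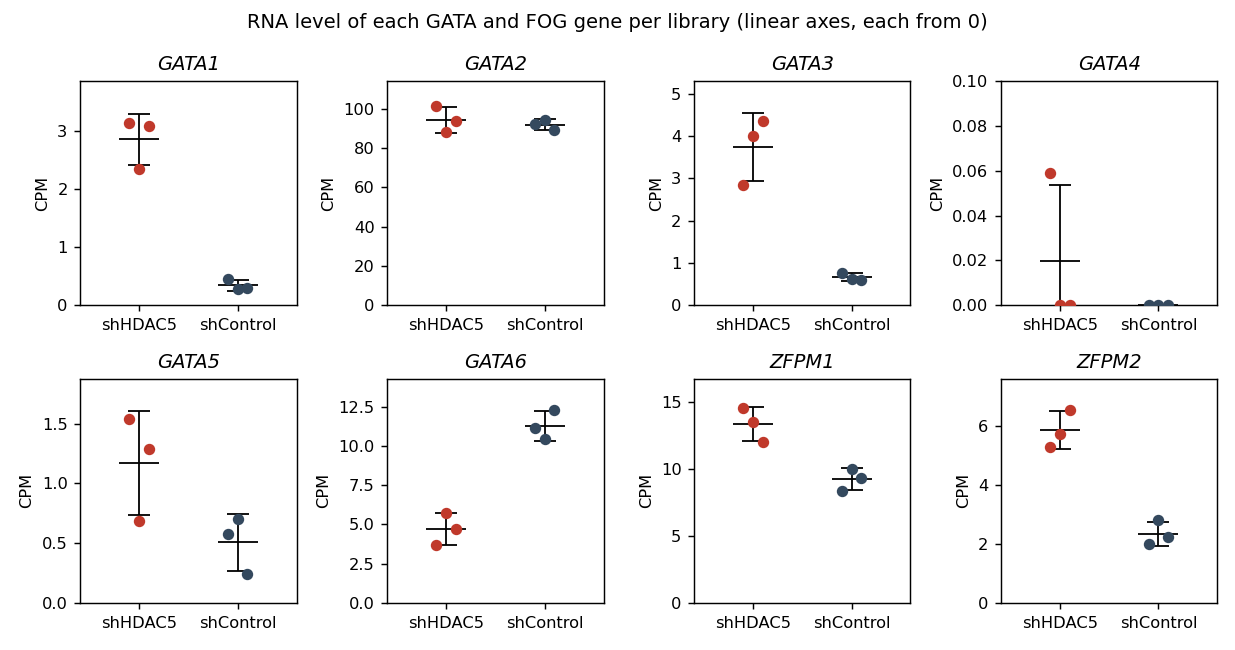
RNA level in CPM of each GATA and FOG gene, 1 panel a gene, shHDAC5 libraries left and shControl libraries right; points are libraries, and the bars give mean and SD (n = 3). The groups stand apart for GATA1, GATA3, GATA6, ZFPM1 and ZFPM2, and overlap for GATA2, GATA4 and GATA5.

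GATA1 (ENSG00000102145, chromosome X, 48786590 to 48794311), the factor immunoprecipitated here, was scarce in all 6 libraries. It had 53, 41 and 55 counts in the shHDAC5 libraries, against 7, 4 and 5 counts in the shControl libraries. In CPM these were 3.13, 2.35 and 3.07 against 0.451, 0.279 and 0.302, so the lowest shHDAC5 library lay well above the highest shControl one. The log2 fold change of 3.02 (SE 0.349) had an adjusted p of 1.43e-13 in edgeR's quasi-likelihood test. It exceeded that of 89.5% of genes tested and of 82.1% of the 1000 genes nearest in mean level, 74.7% of which were called. Red cell markers moved with GATA1: 4 of 6 rose and 2 were too low to test, where 44.8% of all genes tested rose. The summed level of these markers was 11.6 to 13.4 CPM in shHDAC5 against 1.05 to 1.35 CPM in shControl. All 6 are also on the list of GATA1 targets below, and reads of the near-identical HBA1 and HBA2 could be split by the counting. SLC4A1, the red cell anion exchanger, had 22 counts in all shHDAC5 libraries and 2 in all shControl libraries, and the part of other cells in the result was not tested.

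GATA2 (ENSG00000179348, chromosome 3, 128479422 to 128493201), the stem cell factor of blood, was the most abundant member. It had 101, 88.1 and 93.6 CPM in the shHDAC5 libraries and 92.0, 94.4 and 89.0 CPM in the shControl libraries, and the groups overlapped. Its log2 fold change of 0.04 had an SE of 0.0413, with an adjusted p of 0.373 in edgeR. It passed with upper quartile factors (0.18) and with total counts (0.22), which also moved the median of all genes to 0.23 and 0.27, and its sign turned in 3 alternatives, with values down to -0.02. Of the 1000 genes nearest to GATA2 in level, 92.1% were called. GATA2-AS1, a long noncoding RNA that starts inside GATA2 on the other strand and overlaps it by 3999 bases, had 32.8, 30.5 and 30.9 CPM in shHDAC5 against 46.3, 41.5 and 40.8 CPM in shControl. It fell with a log2 fold change of -0.45 (SE 0.0613, adjusted p = 9.63e-11, edgeR). No source used here states whether counting went by strand, and reads of the overlapping pair could be shared.

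GATA3 (ENSG00000107485, chromosome 10, 8045333 to 8075198), which directs T lymphocytes and breast luminal cells, was low and rose. It had 48, 70 and 78 counts in shHDAC5 and 12, 9 and 10 counts in shControl, which is 2.84, 4.01 and 4.36 CPM against 0.772, 0.629 and 0.604 CPM. The groups did not overlap, and the log2 fold change was 2.47 (SE 0.280, adjusted p = 6.47e-14, edgeR). Its antisense neighbour GATA3-AS1, which lies within the gene, had 3 counts in all shHDAC5 libraries together and 0 in the shControl libraries.

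GATA6 (ENSG00000141448, chromosome 18, 22169589 to 22202528), a factor of pancreas development, was the member that fell. The shHDAC5 libraries had 3.66, 5.73 and 4.70 CPM and the shControl libraries 11.1, 10.4 and 12.3 CPM. No shHDAC5 library reached the shControl range, and the log2 fold change was -1.26 (SE 0.135, adjusted p = 4.27e-15, edgeR). GATA6-AS1, a noncoding RNA on the opposite strand beside the GATA6 start, rose instead, with 3.25, 3.61 and 3.75 CPM in shHDAC5 against 1.61, 2.31 and 2.17 CPM in shControl (log2 fold change 0.80, SE 0.219, adjusted p = 5.36e-04, edgeR). RefSeq leaves 620 bases between the pair, but the deposited length of GATA6-AS1 is 3288 bases, longer than its RefSeq span, so the counted gene models could still touch.

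GATA5 (ENSG00000130700, chromosome 20, 62463497 to 62475995) and GATA4 (ENSG00000136574, chromosome 8, 11676935 to 11760002), known from heart and endoderm, were at or near the detection limit. GATA5 had 26, 12 and 23 counts in shHDAC5 and 9, 10 and 4 counts in shControl, or 1.54, 0.687 and 1.29 CPM against 0.579, 0.699 and 0.241 CPM. The lowest shHDAC5 library was just below the highest shControl library. GATA5 passed with a log2 fold change of 1.22 (SE 0.398, adjusted p = 0.00353, edgeR), but without shControl replicate 3 it was 0.85 with an adjusted p of 0.0721. Over the 12 alternatives the adjusted p of GATA5 ran between 7.87e-04 and 0.0721. GATA4 had 1 count in shHDAC5 replicate 1 and none elsewhere, and 0 counts over the shControl group allow up to 0.0646 CPM (3 counts, counting error only).

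Both FOG genes rose. ZFPM1 (ENSG00000179588, chromosome 16, 88451769 to 88537031), the partner of GATA1 in blood, had 14.5, 13.5 and 12.0 CPM in shHDAC5 against 8.37, 9.99 and 9.29 CPM in shControl, a log2 fold change of 0.54 (SE 0.11, adjusted p = 6.26e-06, edgeR). ZFPM2 (ENSG00000169946, chromosome 8, 105318438 to 105804539), the partner of GATA4 in the heart, had 5.26, 5.73 and 6.54 CPM against 2.00, 2.79 and 2.23 CPM, a log2 fold change of 1.33 (SE 0.186, adjusted p = 2.57e-10, edgeR). Neither gene's groups overlapped. ZFPM1-AS1, which lies inside ZFPM1, fell to 1.03 ± 0.217 CPM in shHDAC5 against 1.92 ± 0.219 CPM in shControl, and ZFPM2-AS1, which overlaps ZFPM2 by 24130 bases, rose to 12.5 ± 1.70 CPM against 8.67 ± 0.666 CPM (SD, n = 3 each). Their adjusted p-values were 0.00484 and 1.25e-05 (edgeR), and shared reads remain possible for both pairs.

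**Figure D2:**
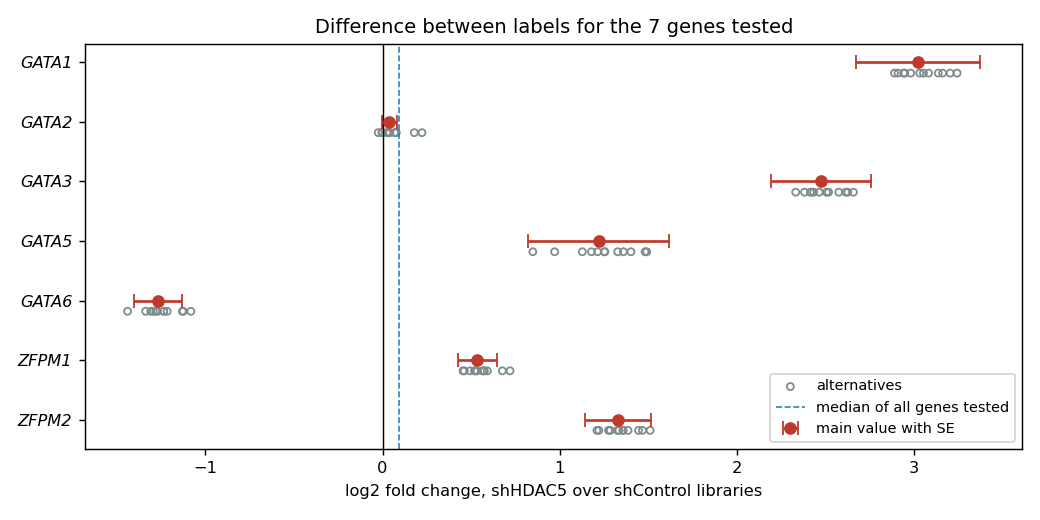
Log2 fold change of shHDAC5 over shControl for the 7 genes tested, with its SE (filled points) and the values under 12 alternative settings (open points); the dashed line is the median of all genes tested. GATA6 alone lies left of 0 throughout, and the GATA2 values, from -0.02 to 0.22, fall on both sides of 0.

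To compare levels between genes, CPM were divided by the gene length in the deposited table (CPM per kb). On this scale the order in shHDAC5 was GATA2 at 21.1 ± 1.47, ZFPM1 at 2.17 ± 0.206, GATA1 at 1.91 ± 0.293, GATA6 at 1.24 ± 0.271 and GATA3 at 1.10 ± 0.235 CPM per kb, followed by ZFPM2, GATA5 and GATA4 (SD, n = 3). Library values of ZFPM1 and GATA1 overlapped, as did those of GATA6 and GATA3. In shControl the order was GATA2 at 20.5 ± 0.601, GATA6 at 2.97 ± 0.253 and ZFPM1 at 1.50 ± 0.132 CPM per kb, and ZFPM2, GATA1, GATA3 and GATA5 followed between 0.291 and 0.193 CPM per kb, each overlapping with the next.

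GATA2 made up most of the family's signal under both labels. It held 75.1%, 72.6% and 72.7% of the summed CPM per kb of the 8 genes in the shHDAC5 libraries and 79.5%, 79.8% and 78.3% in the shControl libraries. The GATA1 share was 6.65% ± 0.738 in shHDAC5 and 0.891% ± 0.244 in shControl, and the GATA6 share was 4.35% ± 1.18 and 11.5% ± 1.21 (SD, n = 3 each). Per kb, GATA6 thus ranked above GATA1 in every shControl library and below it in every shHDAC5 library. In shHDAC5 replicate 2 they were close, with GATA6 at 1.51 and GATA1 at 1.57 CPM per kb. In CPM not divided by gene length, GATA6 was above GATA1 in every library under both labels. The sum over the 8 genes was 28.7 ± 1.50 CPM per kb in shHDAC5 and 25.9 ± 0.526 CPM per kb in shControl.

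**Figure D3:**
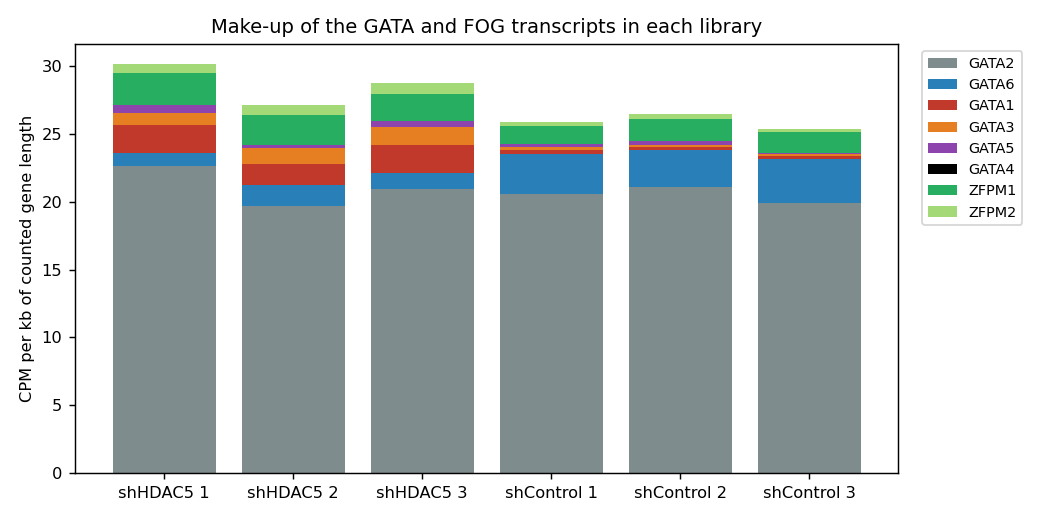
CPM per kb of the 8 genes stacked by library, shHDAC5 libraries left of shControl libraries. The GATA2 block is the tallest in all 6 bars, the GATA6 block is shorter in the shHDAC5 bars, and those of GATA1 and GATA3 are taller there.

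Genes with a profile most like a member's were found by Euclidean distance between log2 CPM over the 6 libraries, which combines level and pattern. Nearest to GATA1 were ARL10 (distance 0.452), at 3.00 CPM in shHDAC5 and 0.342 CPM in shControl, and MYOCD (0.556). KANK2 (0.146) and PPP4C (0.151) lay nearest to GATA2, C11orf65 (0.535) and NOX5 (0.538) to GATA3, and METTL1 (0.319) and PSORS1C1 (0.408) to GATA6. For the scarce GATA5 the nearest were FOXP3 (0.780) and MUC12 (0.830). HDHD3 (0.180) and ZNF517 (0.270) were nearest to ZFPM1, and CFAP58 (0.331) and P2RX6 (0.387) to ZFPM2.

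Genes that work with the GATA factors mostly fell. Of 94 genes on 8 lists of partners and targets, 58 were tested: 15 rose, 38 fell and 5 were called in neither direction. Their median log2 fold change was -0.70, against 0.09 over all genes, of which 44.8% rose and 39.9% fell. Among corepressors that FOG proteins use, 9 of 11 fell, HDAC1 rose and MBD3 did not pass. CHD3, a NuRD remodelling ATPase, was at 55.2 ± 1.07 CPM in shHDAC5 against 391 ± 3.93 CPM in shControl, the histone-binding RBBP4 at 59.4 ± 1.28 against 206 ± 1.32 CPM, and the corepressor CTBP2 at 24.6 ± 0.973 against 104 ± 2.47 CPM (SD, n = 3 each). Of the other human proteins with a GATA-type finger, 3 of 8 tested rose and 5 fell. The NuRD subunits MTA1 and MTA3 fell, with log2 fold changes of -1.82 and -2.39, and the corepressor RERE rose with 1.45.

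In the complex that GATA1 and GATA2 form with TAL1 and LDB1 in blood cells, 3 of 9 tested genes rose and 6 fell. Over all genes tested, 84.7% were called (44.8% rose and 39.9% fell), the background for this count and for the acetyltransferases below. TCF12, a dimer partner of TAL1, was at 15.4 ± 0.928 CPM in shHDAC5 against 88.6 ± 2.61 CPM in shControl, the single-stranded DNA-binding protein SSBP2 at 53.5 ± 2.17 against 11.9 ± 1.41 CPM, and SSBP4 at 43.2 ± 1.75 against 93.4 ± 4.70 CPM (SD, n = 3 each). TAL1 itself had 3 counts in all shHDAC5 libraries and LMO2, its bridge to LDB1, had 30, and both had 0 counts in the shControl libraries. Of 6 acetyltransferases and bromodomain readers, 5 fell, among them CREBBP, KAT2B and BRD3 with log2 fold changes of -1.40, -1.82 and -0.67, while EP300 rose with 0.44. These log2 fold changes all had adjusted p-values below the threshold of 0.05 (edgeR's quasi-likelihood test).

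Of 20 red cell and platelet targets of GATA1, 10 were tested, 5 rose, 4 fell and 1 did not pass. HBB, the beta globin gene, had 268 counts in shHDAC5 and 0 in shControl, whereas NFE2, a platelet and red cell factor, was at 0.964 ± 0.399 CPM in shHDAC5 against 10.1 ± 0.694 CPM in shControl and the platelet integrin ITGA2B at 9.19 ± 0.471 against 19.6 ± 1.07 CPM (SD, n = 3 each). Among 10 stem cell and endothelial partners and targets of GATA2, none of 5 tested rose and 3 fell: EDN1 (endothelin 1) at 2.48 ± 0.624 CPM against 30.4 ± 2.44 CPM, and the ETS-family factors ETV6 and ERG with log2 fold changes of -1.42 and -0.62. Of 5 tested partners and targets of GATA3, TFAP2C rose with a log2 fold change of 0.64, 3 fell and ESR1, at 1.01 and 1.15 CPM in shHDAC5 and shControl, did not pass. TFAP2A was at 20.9 ± 1.53 CPM in shHDAC5 against 210 ± 3.64 CPM in shControl, and XBP1, a secretory stress factor, at 41.1 ± 0.905 against 106 ± 1.88 CPM. In the endoderm and heart list of GATA4 and GATA6, 4 of 15 genes were tested. HNF4A, a liver and gut factor, fell to 1.66 ± 0.259 CPM in shHDAC5, against 4.42 ± 0.968 CPM in shControl (SD, n = 3 each), TBX20 fell with overlapping groups (log2 fold change -1.11, SE 0.460, adjusted p = 0.0211, edgeR), and MEF2C had 51 counts against 1. Summed markers of leukocytes, endothelium and fibroblasts were 6.43 to 8.16, 3.66 to 4.35 and 85.7 to 90.9 CPM in shHDAC5, against 3.26 to 4.05, 1.21 to 1.74 and 121 to 131 CPM in shControl. Of 6 leukocyte, 5 endothelial and 6 fibroblast markers, only 2, 2 and 4 had enough counts to be tested. In each list 1 rose, and 3 of the fibroblast list fell, where 84.7% of all genes tested were called. The leukocyte integrin ITGAM had 145 counts in all shHDAC5 libraries and 0 in all shControl libraries, and the endothelial VWF had 118 and 11 counts. PTPRC, found on nearly all leukocytes, had 5 and 1 counts, the endothelial receptor KDR had 3 and 2, and LUM had no count under either label. The part of such cells in these results was not tested.

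GATA1 peaks were counted in each gene and 10 kb on either side, which came to 911 kb over the 8 genes. The names inside the lists go against their labels. Peaks in the list labelled shHDAC5 are named GATA1-NC-IP, the name in the titles of the control samples. Those in the list labelled shControl are named GATA1-SAHA-IP. With 1 list per label, no difference between lists could be tested against replicates, and which condition each holds is unsettled. All 8 windows had a peak in both lists, against 92.7% and 82.8% of 20037 coding genes with at least 1 peak in the shHDAC5 and shControl lists. The windows held 79 peaks in the shHDAC5 list and 103 in the shControl list, 0.867 and 1.13 per 10 kb, against 0.881 and 0.678 per 10 kb over the windows of all coding genes together. Of the 103 shControl peaks, 25 lay at GATA5 and 49 at ZFPM1, and each other member had between 1 and 8. The pooled shControl density thus does not describe the family as a whole. The whole lists held 249139 peaks for shHDAC5 and 121070 for shControl.

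Most of these peaks were weak. None of the 79 in the shHDAC5 list had an authors' q of at most 0.05, and 3 of the 103 in the shControl list did, against 0.419% and 5.10% of all peaks in the lists. By gene, 0 and 2 of the 8 had such a peak, where 2.28% and 17.8% of coding genes did. The authors' fold enrichment had a median of 2.38 in the shHDAC5 list and 2.76 in the shControl list, and it fell on few steps, with 32 distinct values among the 79 peaks and 24 among the 103. Peaks overlapping by at least 1 base between the lists numbered 12 in each, which is 15.2% of the shHDAC5 and 11.7% of the shControl peaks, where 5.54% and 11.6% of the whole lists overlapped. Of the 12, 4 were at GATA5 and 4 at ZFPM1, where shControl peaks crowded, 3 were at GATA2 and 1 was at GATA1. With a reciprocal overlap of at least 50%, 6 were shared.

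The GATA1 window had 7 peaks in the shHDAC5 list and 1 in the shControl list. Of these, 2 in the shHDAC5 list and 0 in the shControl list reached into the gene. The strongest shHDAC5 peak, at chrX:48786616-48786985, had its summit 175 bases after the start site, with a fold of 3.42 and a −log10 q of 0.314. The single shControl peak, at chrX:48785801-48786100 with a fold of 2.39, overlapped a shHDAC5 peak with its summit 552 bases before the start site. Of the 500 coding genes nearest in window length, 97.0% had fewer shHDAC5 peaks and 19.2% fewer shControl peaks than GATA1.

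At GATA2 there were 6 shHDAC5 and 8 shControl peaks, 3 of them overlapping. In the shHDAC5 list the shared peaks had summits 5.54 and 1.57 kb after the nearest start site, inside the gene, and 3.56 kb before it. A pair of shControl peaks had the highest fold, 3.51, of which chr3:128492293-128493160 had its summit 199 bases after the first start site and reached into the promoter shown above. The strongest shHDAC5 peak, at chr3:128482876-128483222 with a fold of 2.88, coincided with a shControl peak of fold 2.95.

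GATA3 had 1 shHDAC5 and 8 shControl peaks, none shared. The shHDAC5 peak, at chr10:8044451-8044899 with a fold of 2.14, lay before the first start site, and the strongest shControl peak, at chr10:8049051-8049738 with a fold of 3.23, covered the first 135 bases of the first internal promoter shown above, but not its start site. GATA6 had 5 and 3 peaks in the shHDAC5 and shControl lists, none shared and none with a summit within 1 kb of its start site, and its highest folds were 2.56 and 2.39. GATA4 had 1 and 2 peaks with folds up to 2.14 and 2.39. Of the 5 members with a RefSeq promoter, a summit lay within 1 kb of a start site for 3 (shHDAC5 list) and 4 (shControl list). Among coding genes, 25.6% and 49.7% had one. A gene counted if any of its start sites had a summit, and GATA2 and GATA3 have more than 1 start site. None of these members' peaks had a q of at most 0.05.

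**Figure D4:**
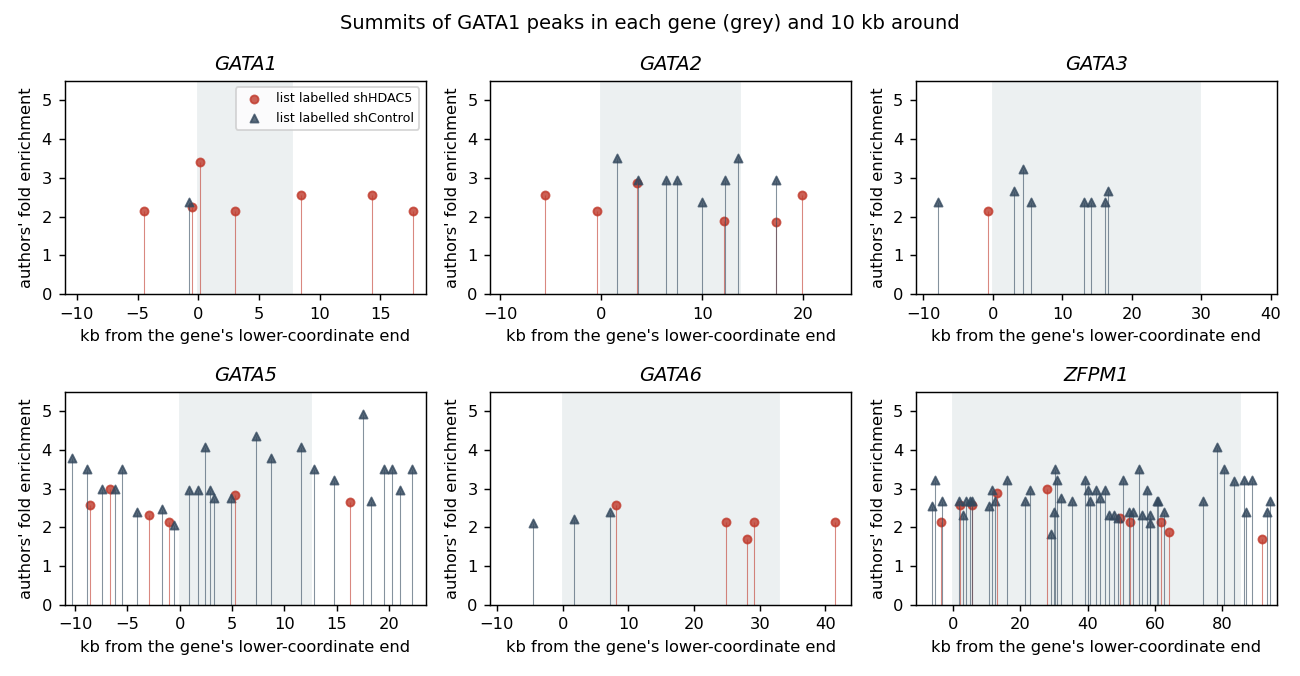
Summits of GATA1 peaks at 6 members, by distance in kb from the lower-coordinate end of the gene (grey) and by the authors' fold enrichment; circles are the shHDAC5 list and triangles the shControl list. GATA5 and ZFPM1 carry many shControl peaks, 25 and 49, and the GATA1 start carries the strongest shHDAC5 peak shown.

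Peaks of the shControl list crowded at GATA5 and ZFPM1. GATA5 had 6 shHDAC5 and 25 shControl peaks, 4 of them overlapping, or 1.85 and 7.69 per 10 kb. Its 2 strongest shControl peaks, chr20:62480510-62481227 with a fold of 4.92 and chr20:62469339-62471427 with a fold of 4.36, passed the q threshold with −log10 q of 2.50 and 1.80. ZFPM1 had 10 shHDAC5 and 49 shControl peaks, or 0.950 and 4.66 per 10 kb, with highest folds of 2.99 and 4.07. Of the 500 coding genes of like window length, 99.8% had fewer shControl peaks than GATA5 and 98.4% fewer than ZFPM1, and in the shHDAC5 list 90.4% and 57.6% did.

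The neighbourhoods of these genes were crowded too. In the next 1 Mb on each side, summits of the shControl list numbered 3.70 per 10 kb around GATA5 and 2.59 around ZFPM1, against 1.05 and 0.900 in the shHDAC5 list. Around the other 6 members, shControl summits ran from 0.0100 per 10 kb beside GATA4 to 1.05 beside GATA2. The very long ZFPM2 window, 506 kb, had 43 shHDAC5 and 7 shControl peaks and none shared, close to the medians of 39 and 8 peaks over the 500 coding genes of like window length, and 0.800 and 0.140 summits per 10 kb in its neighbourhood. One shControl peak there, at chr8:105387383-105387693 with a fold of 4.09, passed the q threshold with a −log10 q of 1.87.

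**Figure D5:**
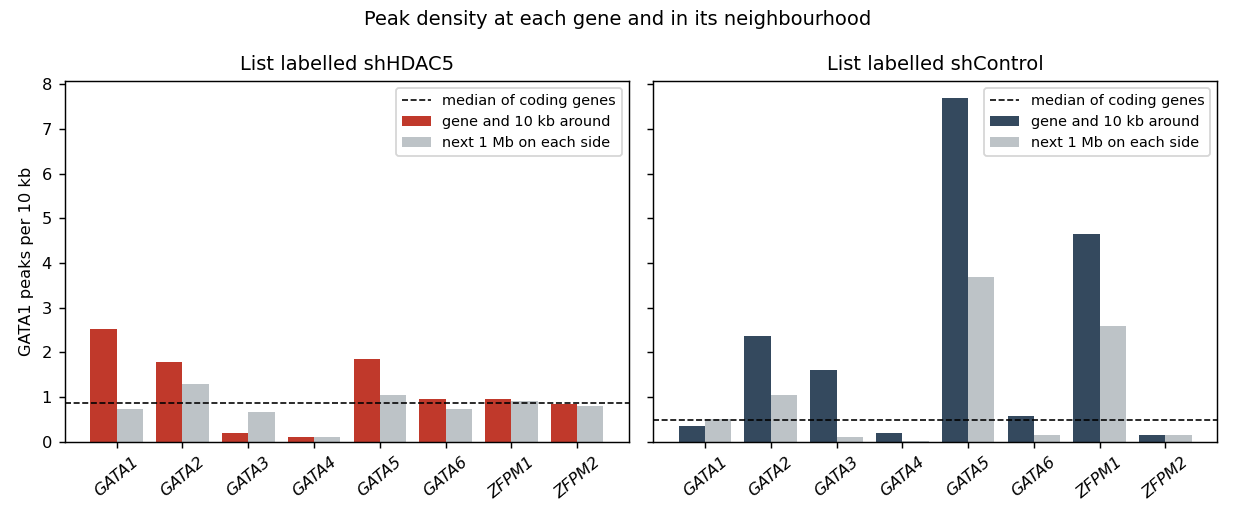
GATA1 peaks per 10 kb in each gene with 10 kb around (coloured) and in the next 1 Mb on each side (grey), shHDAC5 list left and shControl list right; the dashed line is the median of coding genes, 0.859 and 0.480 per 10 kb. GATA5 and ZFPM1 stand highest in the shControl list, at 7.69 and 4.66 per 10 kb, and their neighbourhoods stand above the median as well.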

How the data were processed

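RNA was measured in 6 libraries (3 per label) and GATA1 binding in 8 PANC-1 samples, of which inputs were not analysed here. The authors deposited whole-number counts per Ensembl gene with a gene length, and 1 peak list per label with a fold enrichment (ratio) and a −log10 q for every peak, in the narrowPeak layout. Per the submitters' processing notes, featureCounts 2.0.1 and MACS2 2.2.7.1 were among the tools, on hg38. For the aligner, annotation release, strand setting and pooling before peak calling: not given in the sources used here.

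After filterByExpr and TMM scaling, edgeR 4.0.16 in R 4.3.3 gave two-sided quasi-likelihood p-values with Benjamini-Hochberg adjustment over all genes. The SE was the size of a log2 fold change divided by the root of its F statistic. Alternatives were DESeq2 1.42.0, other scalings, no filter, a replicate block, leaving out each library, and other windows and peak thresholds. Peaks were joined to RefSeq coordinates (GRCh38.p14) in Python 3.11.15 with pandas 2.3.3, and neighbourhoods were counted by summit. The planned scale by coding length was replaced by the deposited gene length. Lists and members were chosen with earlier results of these data known. Named genes are the members, up to 3 called genes per list with the smallest adjusted p, and the 2 nearest profiles. Antisense genes, SLC4A1, HDAC1, EP300, MBD3, ESR1, TAL1, LMO2, TBX20 and the single marker genes were added after values were seen. Some genes on the lists are not reported here by name. Of the 61541 gene IDs 61369 had a symbol.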

Additional observations from a re-analysis of the deposited data

How the results depend on the processing

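GATA1, GATA3, GATA6, ZFPM1 and ZFPM2 kept their direction and their call in all 12 RNA alternatives, and so did HDAC5. The count of members that rose was 6 with upper quartile factors or total counts, because GATA2 then passed, with log2 fold changes of 0.18 and 0.22, under medians over all genes of 0.23 and 0.27. GATA2 turned to -0.0024 without the filter on low counts, to -0.024 without shHDAC5 replicate 1 and to -0.0029 without shControl replicate 3, and the cause was not tested. Leaving out single libraries, GATA2 ran from -0.024 to 0.078, GATA5 from 0.85 to 1.49, and 4 to 5 members rose. Without the filter, 26 partner genes rose in place of 15, with 41231 genes tested. The replicate numbers did not pair the libraries: correlations of same-numbered deviations were -0.0126, 0.0026 and 0.0059, and 1 of 3 pairs correlated best with its own number. With the replicate block, 5 members rose and 1 fell, and 8514 and 7558 of all genes did. Peaks at the members numbered 0 in the shHDAC5 list and 3 in the shControl list at a q of at most 0.05, and 2 and 32 at a fold of at least 3. With a reciprocal overlap of at least 50%, 6 peaks were shared. Counts near 10 or fewer per library limit GATA1, GATA3 and GATA5 in shControl.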
